A study of Mus musculus with 4 samples.

Results

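The Notch genes examined here were the receptors Notch1, Notch2 and Notch3, the ligands Jag1, Jag2 and Dll1, the DNA-binding factor Rbpj, and the target genes Hes1, Hey1 and Heyl. They were taken by gene name from a ribosome profiling (Ribo-seq) table of primary mouse myoblasts. All 10 names were found among the 55573 genes of the table. In Ribo-seq, RNA under ribosomes survives nuclease digestion and is sequenced, so each value is a level of ribosome footprints, which depends on both mRNA amount and translation. Levels are given in RPKM, the reads of a gene divided by its length in kilobases and by a library size that the authors adjusted between libraries. The study compared cells of wild-type (WT) mice with those of mice knocked out (KO) for the translation factor eIF5A, with 2 libraries in each group.

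The KO mice were Pax7-CreERT2/+;eIF5A f/f on the C57BL/6j background and were given tamoxifen (TMX), so that Cre acts in cells that express Pax7 and not in other cells of the muscle. The WT controls were littermates, described as Pax7-CreERT2/+ and elsewhere as Pax7+/+;eIF5A f/f. Cells of both groups came from hind-limb muscle of 3-week-old mice by enzyme digestion and straining, were grown in serum with FGF and were labelled as proliferating at day 2. Cycloheximide, which stops elongating ribosomes, was added to all cultures before lysis, for a time that the labels and the methods state differently. Nothing in the labels says that replicates came from separate animals or cultures, so p-values measure only the spread between these libraries, which may be technical.

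Notch receptors are cut after they bind a ligand on a neighbouring cell, and the released intracellular part joins RBPJ in the nucleus to switch on Hes and Hey genes, which encode transcriptional repressors. In skeletal muscle, Notch signalling is known for keeping satellite cells, the muscle stem cells, undifferentiated. eIF5A is known for helping ribosomes through stretches of consecutive prolines, among other sites that are hard to translate.

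The coding sequences were therefore searched for runs of at least 3 consecutive proline codons, a feature that had no part in choosing the genes. Of the 10 Notch genes, 7 (70.0%) had such a run, against 2538 of 9847 tested protein-coding genes (25.8%). This is a description of the sequences, and run number was not adjusted for protein length or for the GC content of the coding sequence. Notch3 and Hes1 each had 3 runs with a longest run of 6 codons, Notch1 had 2 runs with a longest of 4, Dll1 and Rbpj had 2 runs of 3 codons, and Jag2 and Heyl had 1 run of 3 codons. Notch2, Jag1 and Hey1 had no run longer than 2 codons. The longest run of each gene is shown because the genes are set side by side by this feature further on. Sequences are from the GRCm38 genome with GENCODE vM21 coding exons, read 5′ to 3′ on the coding strand, with the proline codons in capitals and flanks from the same exon.
Notch1, exonic, codons 2258 to 2261, chr2:26460329-26460370, minus strand: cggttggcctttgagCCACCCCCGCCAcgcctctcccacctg
Notch3, exonic, codons 18 to 23, chr17:32166710-32166757, minus strand: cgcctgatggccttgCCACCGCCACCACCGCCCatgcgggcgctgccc
Jag2, exonic, codons 1165 to 1167, chr12:112909117-112909155, minus strand: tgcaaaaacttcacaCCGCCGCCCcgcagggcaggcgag
Dll1, exonic, codons 522 to 524, chr17:15368825-15368863, minus strand: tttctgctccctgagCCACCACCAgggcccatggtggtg
Rbpj, exonic, codons 52 to 54, chr5:53627384-53627421, plus strand: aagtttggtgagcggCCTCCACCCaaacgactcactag
Hes1, exonic, codons 166 to 171, chr16:30067060-30067107, plus strand: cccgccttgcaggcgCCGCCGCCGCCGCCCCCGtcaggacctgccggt
Heyl, exonic, codons 257 to 259, chr4:123246403-123246441, plus strand: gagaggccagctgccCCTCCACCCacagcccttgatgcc

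The targeted gene was examined first as a check of the labels. Eif5a gave 34.9 and 65.2 RPKM in WT replicates 1 and 2 against 60.3 and 59.4 RPKM in the libraries labelled KO. It was thus not lower there, and these are called the KO-labelled libraries throughout. The libraries held 642429 to 704006 gene-assigned reads each. Protein-coding genes took 41.5% and 33.9% of these reads in WT and 65.4% and 59.2% in the KO-labelled libraries. Mitochondrial rRNA genes took 39.1% and 30.1% in WT and 15.0% and 18.5% in the KO-labelled libraries. For miRNA genes the shares were 4.30% and 16.8% in WT and 2.31% and 2.85% in the KO-labelled libraries. All these reads are part of the totals where libraries are scaled to total reads. Replicates differed by more than sampling noise, with a chi-square per degree of freedom over protein-coding genes of 6.94 in WT and 5.28 in the other group, so counting intervals are narrower than the spread between libraries. Across groups this measure was lowest at 3.61, for WT replicate 2 with KO-labelled replicate 2, which is below both within-group values, and highest at 10.2, for both replicates numbered 1. Markers of muscle stem cells and myoblasts were detected in each library, with a summed level of 191 to 237 RPKM in WT and 116 to 127 RPKM in the KO-labelled libraries. Markers of fibroblasts summed to 467 and 269 RPKM in WT replicates 1 and 2 and to 774 and 343 RPKM in KO-labelled replicates 1 and 2. Of the 8, 2 were higher there without overlap (20.1% of all genes) and 1, Thy1, was lower without overlap (20.3% of all genes). Immune markers were low, at 27.8 to 54.4 RPKM in sum, with Cd3e at 0 reads. In such bulk samples, fewer cells of a type and fewer footprints per cell cannot be told apart.

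All 10 genes were detected, from Notch2 with 666 reads over the 4 libraries to Heyl with 21 reads. The deposited RPKM divides reads by the whole gene length, of which the coding sequence is 12.4% for Rbpj and 86.0% for Notch3. Levels are therefore compared between genes per coding length, as RPKM recomputed with the coding sequence as length. On this scale the WT order of mean levels (± SD, n = 2) was Hes1 at 50.5 ± 38.2, Rbpj at 48.3 ± 26.7, Notch2 at 32.2 ± 0.627, Notch1 at 27.1 ± 11.4, Heyl at 17.6 ± 15.7, Jag1 at 17.3 ± 6.37, Notch3 at 10.2 ± 4.48, Jag2 at 9.0 ± 2.31, Dll1 at 8.78 ± 2.73 and Hey1 at 8.40 ± 1.46. No neighbours in this WT order were separated, since the replicate values of each overlapped those of the next. In the KO-labelled libraries the first 5 places, on the same scale, were held by Hes1 at 56.1 ± 27.9, Rbpj at 39.2 ± 7.75, Notch2 at 31.9 ± 6.17, Notch1 at 22.4 ± 3.49 and Jag1 at 14.0 ± 4.04. The last 3 were Notch3 at 5.52 ± 0.259, Jag2 at 1.58 ± 0.570 and Heyl at 0.631 ± 0.892. There, Notch2 stood apart from Notch1, Notch1 from Jag1, Dll1 from Notch3 and Notch3 from Jag2, while the other neighbours overlapped. Dll1 and Notch3 were barely apart, with a lowest Dll1 value of 5.708 and a highest Notch3 value of 5.705. Rbpj, at rank 2 by coding length in both groups, was at rank 6 by whole gene length in WT and rank 5 in the KO-labelled libraries.

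**Figure D1:**
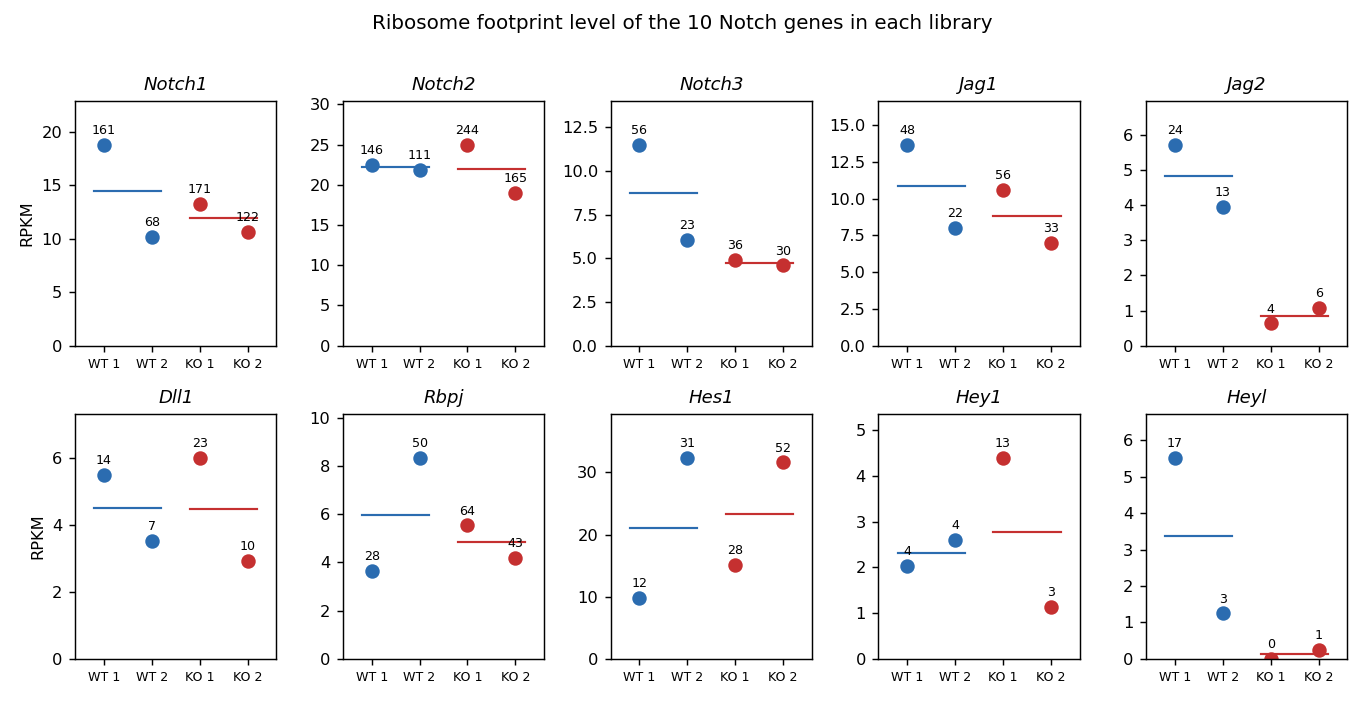
Footprint level in RPKM (vertical axis, linear, starting at 0, a separate scale for each gene) of the 10 Notch genes in WT replicates 1 and 2 (blue) and the libraries labelled KO replicates 1 and 2 (red). Numbers above the points are reads and lines are group means. Both KO-labelled points lie below both WT points for Notch3, Jag2 and Heyl, and the groups overlap for the other 7 genes.

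The comparison of groups asked whether footprints on the Notch genes differed in the KO-labelled libraries. Jag2 and Heyl had the largest differences, both lower in those libraries, and Notch3 was also lower without overlap. The 2 receptors with most reads, Notch1 and Notch2, and Hes1, Jag1, Dll1, Rbpj and Hey1 had overlapping groups. No gene of the 10 passed the test across all genes (limma on log2(RPKM + 1), Benjamini-Hochberg adjusted p under 0.05), a threshold passed by 12 of 11363 genes tested (0.106%). At an unadjusted p under 0.05, limma gave 1 of the 10 as lower (Jag2), against 4.46% of all genes tested, and 0 as higher, against 2.86%. The voom test of limma on the recovered reads also called none of the 10 at an adjusted p under 0.05, where 0.695% of all genes were called. At an unadjusted p under 0.05 it gave 2 as lower (Jag2 and Heyl), against 7.31% of all genes. In total 3 of 10 were lower without overlap, against 20.3% of all genes tested, and 0 were higher without overlap, against 20.1%. The log2 difference was below 0 for 8 of 10, against 50.0% of all genes, with a median of -0.19 against 0.00. That median was -0.46 without WT replicate 2, -0.49 without KO-labelled replicate 1 and -0.034 without KO-labelled replicate 2. After removal of the trend on GC and length, 5 of 10 were below 0 and the median was 0.057. Scaling to total reads instead moved the median of all genes to 0.47. There, 3 of the 10 were below 0, against 3163 of 11363 genes tested, and the median of the 10 was 0.35. On that scale Jag2 and Heyl were lower without overlap (7.87% of all genes), Notch2 was higher without overlap (41.4% of all genes), and Notch3 overlapped between groups with a log2 difference of -0.18.

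**Figure D2:**
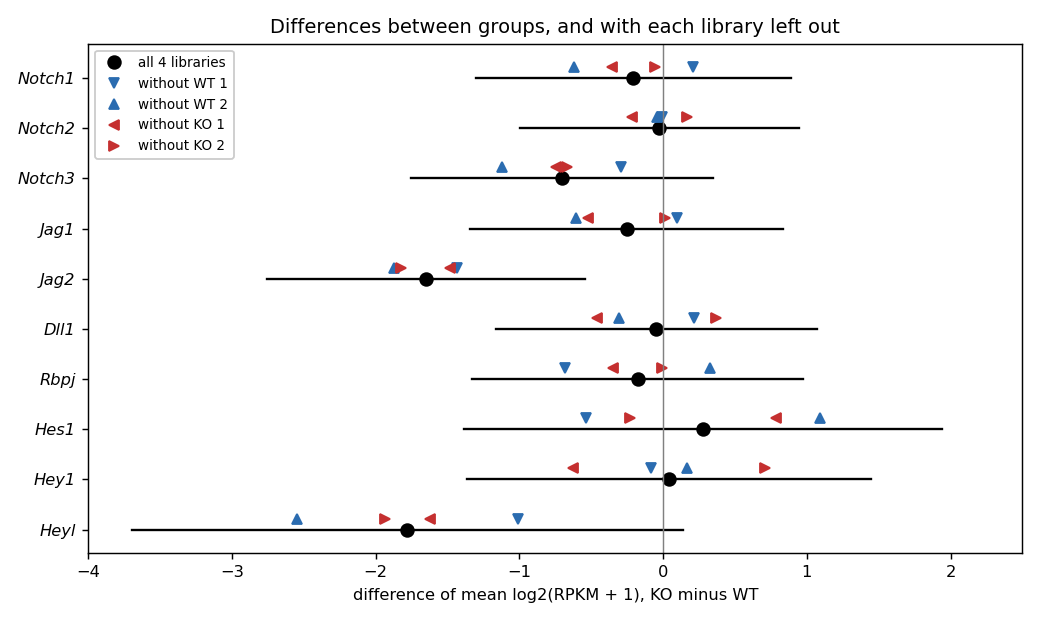
Difference of mean log2(RPKM + 1), KO-labelled libraries minus WT (horizontal axis), for each Notch gene. Black points use all 4 libraries with the 95% limma confidence interval as a line, and triangles leave out the library named in the legend. The interval lies below 0 for Jag2 alone, and the triangles of Jag2, Heyl and Notch3 all lie below 0.

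Among the receptors, Notch2 had 146 and 111 reads in WT against 244 and 165 reads in the KO-labelled libraries, or 22.5, 21.9, 25.0 and 18.9 RPKM. Both WT values lay between the KO-labelled ones. The groups differed by a log2 value of -0.03 with a 95% interval of -0.999 to 0.95 (limma, adjusted p = 0.987), an interval that reaches nearly 1 log2 unit to either side.

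Notch1, a receptor known to act in satellite cells, had 161 and 68 reads in WT against 171 and 122 reads in the KO-labelled libraries. The levels were 18.8 and 10.1 RPKM in WT against 13.2 and 10.6 RPKM in the KO-labelled libraries. WT replicate 1 was the highest and WT replicate 2 the lowest, so the groups overlapped and the 1.85-fold gap between WT replicates exceeded the gap between group means. On the log2 scale the difference was -0.21 (-1.30 to 0.89, limma adjusted p = 0.891), and it was 0.21 without WT replicate 1.

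Notch3, a receptor found on satellite cells and on mural cells of blood vessels, had 56 and 23 reads in WT against 36 and 30 reads in the KO-labelled libraries. These were 11.5 and 6.04 RPKM in WT against 4.91 and 4.59 RPKM in the KO-labelled libraries. Both KO-labelled values were below both WT values, but WT replicate 2 was nearer to them than to WT replicate 1. Its log2 difference was -0.71 ± 0.43 (SE) with an interval of -1.76 to 0.35 (limma p = 0.151, adjusted p = 0.697, exact permutation p = 0.333), and -0.29 without WT replicate 1. Notch3 (ENSMUSG00000038146, chr17:32120820-32166852, minus strand) shares its locus with an lncRNA on the opposite strand, Gm17276, which had 21, 16, 10 and 8 reads in the same library order. The sources used here do not state whether counting used strand, so reads of both genes cannot be told apart.

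Within a library, the share of each receptor among the Notch1, Notch2 and Notch3 reads does not depend on how libraries are scaled. Notch3 took 15.4% (95% Wilson interval 12.1% to 19.5%) of 363 reads and 11.4% (7.71% to 16.5%) of 202 reads in WT. In the KO-labelled libraries it took 7.98% (5.82% to 10.9%) of 451 reads and 9.46% (6.71% to 13.2%) of 317 reads. The Notch3 share was lower without overlap, at 13.4% ± 2.86 in WT and 8.72% ± 1.05 in the KO-labelled libraries (SD, n = 2; exact permutation p = 0.333). That p is the smallest a two-sided exact test of 2 libraries against 2 can give. Without WT replicate 1 the difference in share was -2.66 percentage points instead of -4.68. The Notch1 share was 39.0% ± 7.56 against 38.2% ± 0.403 and the Notch2 share 47.6% ± 10.4 against 53.1% ± 1.45 (SD, n = 2), with overlapping groups for both.

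**Figure D3:**
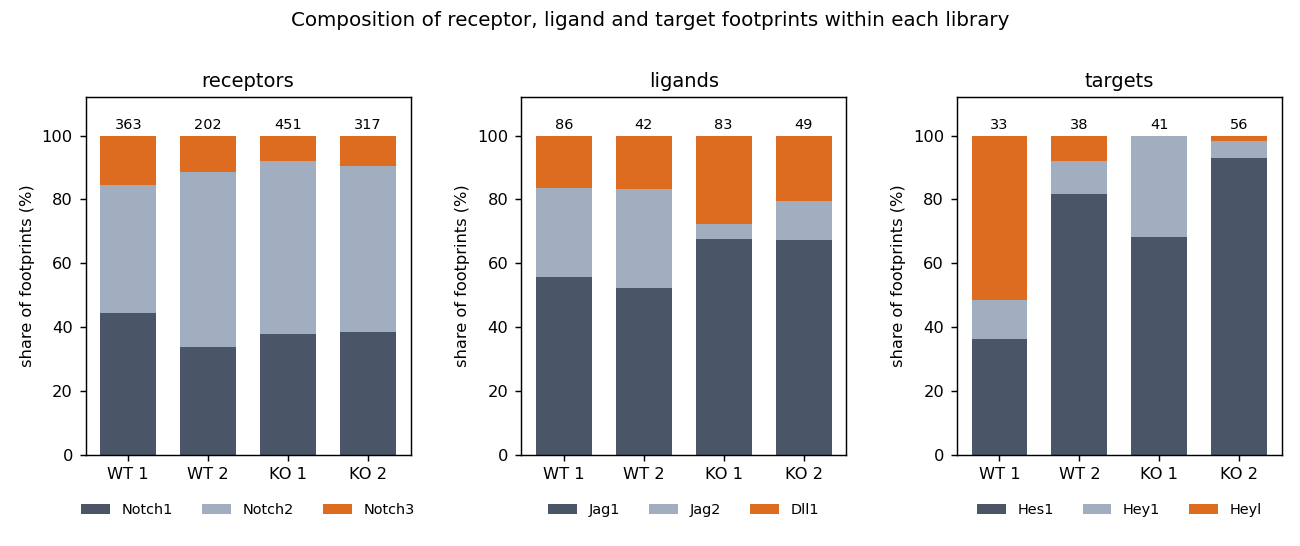
Share of footprints in percent (vertical axis) that each gene took of the reads of the 3 receptors (left), the 3 ligands (middle) and the 3 targets (right) in each library. Numbers above the bars are the reads behind them. Jag2 took 27.9% and 31.0% of ligand reads in WT and 4.82% and 12.2% in the KO-labelled libraries, and Heyl took 51.5% of target reads in WT replicate 1 against 0% to 7.89% in the other libraries.

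Among the ligands, Jag2 was lower in the KO-labelled libraries while Jag1 and Dll1 overlapped between groups. Jag2 (ENSMUSG00000002799, chr12:112907819-112929776, minus strand) encodes a transmembrane ligand of the Serrate family. It had 24 and 13 reads in WT against 4 and 6 reads in the KO-labelled libraries, or 5.72, 3.96, 0.633 and 1.07 RPKM. The lowest WT value was above the highest KO-labelled value. Between groups the log2 difference was -1.65 ± 0.45 (SE), with an interval of -2.76 to -0.55 (limma p = 0.0108, adjusted p = 0.629, exact permutation p = 0.333). Over the summed reads, 37 in WT and 10 in the KO-labelled libraries, the scaled level was 5.91-fold lower, with an exact 95% counting interval of 2.88 to 13.3. With any library left out this ratio stayed between 4.64 and 7.81, and the log2 difference between -1.87 and -1.43. The voom test of limma gave an adjusted p of 0.141, the smallest for Jag2 among the alternatives, which ran up to 0.944. Jag2 passed the filter on low values (mean of at least 1 RPKM) through its WT libraries, since its mean was 0.850 RPKM in the KO-labelled libraries.

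Jag1, the other Serrate-type ligand, had 48 and 22 reads in WT against 56 and 33 reads in the KO-labelled libraries. Its levels were 13.7 and 8.01 RPKM in WT against 10.6 and 7.01 RPKM in the KO-labelled libraries, where replicate 1 lay between the WT values. The difference in log2 level was -0.25 (-1.34 to 0.83, limma adjusted p = 0.861).

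Dll1, a Delta-type ligand, had 14 and 7 reads in WT against 23 and 10 reads in the KO-labelled libraries. The levels were 5.50 and 3.52 RPKM in WT against 6.01 and 2.93 RPKM in the KO-labelled libraries, so both WT values lay between the KO-labelled ones. Its log2 difference was -0.05 (-1.17 to 1.07, limma adjusted p = 0.980).

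As a share of the reads of these 3 ligands, Jag2 took 27.9% (Wilson interval 19.5% to 38.2%) of 86 reads and 31.0% (19.1% to 46.0%) of 42 reads in WT. It took 4.82% (1.89% to 11.7%) of 83 reads and 12.2% (5.73% to 24.2%) of 49 reads in the KO-labelled libraries. The means were 29.4% ± 2.15 and 8.53% ± 5.25 (SD, n = 2; exact permutation p = 0.333), from the same reads as the difference in level. Jag1 took 54.1% ± 2.43 in WT and 67.4% ± 0.0869 in the KO-labelled libraries, and Dll1 took 16.5% ± 0.274 and 24.1% ± 5.16 (SD, n = 2). In all, 9 shares were compared over receptors, ligands and targets, and each exact permutation p was 0.333 or above, so no adjusted value can pass 0.05.

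Rbpj, through which all Notch receptors act on DNA, had 28 and 50 reads in WT against 64 and 43 reads in the KO-labelled libraries. Its levels were 3.64 and 8.32 RPKM in WT against 5.53 and 4.18 RPKM in the KO-labelled libraries. Both KO-labelled values lay between the WT ones, which were 2.28-fold apart. It gave a log2 difference of -0.18 (-1.33 to 0.97, limma adjusted p = 0.913).

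Of the 3 targets, Hes1 was the best detected and had overlapping groups, Hey1 was near the limit of detection, and 17 of the 21 Heyl reads were in WT replicate 1. Hes1, a repressor that many Notch-responsive cells use, had 12 and 31 reads in WT against 28 and 52 reads in the KO-labelled libraries. These were 9.77 and 32.3 RPKM in WT against 15.2 and 31.6 RPKM in the KO-labelled libraries. Replicate 2 was the higher in both groups, by 3.31-fold in WT and 2.09-fold in the KO-labelled libraries, and the groups overlapped. The groups differed by a log2 value of 0.28 (-1.38 to 1.94, limma adjusted p = 0.906).

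Hey1, a related repressor, had 4 and 4 reads in WT against 13 and 3 reads in the KO-labelled libraries. That is 2.03 and 2.60 RPKM in WT against 4.39 and 1.14 RPKM in the KO-labelled libraries, which were thus the highest and the lowest of the 4. On the log2 scale the difference was 0.04 (-1.37 to 1.45, limma adjusted p = 0.987), and a change was not detectable at this depth.

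Heyl (ENSMUSG00000032744, chr4:123233556-123249875, plus strand), a repressor of the Hey family, had 17 and 3 reads in WT and 0 and 1 read in the KO-labelled libraries, or 5.52, 1.25, 0 and 0.242 RPKM. Both KO-labelled values were below both WT values, but 3 of the 4 libraries were at or under 3 reads, the floor below which a level was not told from 0. Its log2 difference was -1.78 ± 0.78 (SE), with an interval of -3.69 to 0.14 (limma p = 0.0633, adjusted p = 0.675, exact permutation p = 0.333). With 20 reads in WT and 1 read in the KO-labelled libraries, the ratio of scaled levels was 31.9 with an exact counting interval of 5.11 to 1323, and it rests on that 1 read. Without WT replicate 1 the log2 difference was -1.01 and the ratio 10.9, with an interval of 0.877 to 573, which includes 1. The ratio was 48.4 without WT replicate 2 and 15.0 without KO-labelled replicate 1, and without KO-labelled replicate 2 no read remained in that group, so that only the lower limit of 4.17 could be given. The voom test of limma gave an adjusted p of 0.102, the smallest for Heyl among the alternatives, which ran up to 0.944. Heyl too passed the filter through its WT libraries. Its share of the Hes1, Hey1 and Heyl reads was 51.5% (Wilson interval 35.2% to 67.5%) of 33 and 7.89% (2.72% to 20.8%) of 38 in WT, and 0% (0% to 8.57%) of 41 and 1.79% (0.316% to 9.45%) of 56 in the KO-labelled libraries. The mean share differed by -28.8 percentage points, and by -7.00 without WT replicate 1.

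WT replicate 1 also held most of the reads of differentiated muscle markers. The summed level of the 8 markers was 247 RPKM in WT replicate 1, 68.2 RPKM in WT replicate 2, and 37.4 and 35.3 RPKM in the KO-labelled libraries. The 5 of these markers that passed the filter were lower in the KO-labelled libraries without overlap, against 20.3% of all genes. Among them, Ckm and Tnnt3 passed the filter through their WT libraries. In the KO-labelled libraries Ckm had 0 and 1 read and Tnnt3 had 1 and 1 read. This count is thus partly fixed by the filter. Of the 7 myoblast markers tested, 4 were lower and 1, Vcam1, was higher without overlap, against 20.3% and 20.1% of all genes. Myf5, 1 of the 4, passed the filter through its WT libraries and had 2 and 0 reads in the KO-labelled libraries. Markers of smooth muscle and pericytes summed to 161 and 128 RPKM in WT against 102 and 113 RPKM in the KO-labelled libraries, with Tagln at 0 reads in each library. Of the 6 tested, 3 were lower and 1, Kcnj8, was higher without overlap, against 20.3% and 20.1% of all genes. Jag2, Heyl and Notch3 were higher in WT, as were the summed levels of these 3 lists, and the part of cell makeup in their values was not tested.

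Outside the 10 genes, the remaining receptor and ligands of the family were examined. Notch4, a receptor best known from endothelium, had 57 and 34 reads in WT against 49 and 43 reads in the KO-labelled libraries, or 11.7, 8.95, 6.70 and 6.60 RPKM. Its groups did not overlap and its log2 difference was -0.56 (-1.47 to 0.35, limma adjusted p = 0.697). Dll4, an endothelial ligand, had 41 and 29 reads in WT against 113 and 50 reads in the KO-labelled libraries, or 17.7, 16.0, 32.3 and 16.1 RPKM. Its groups overlapped and its log2 difference was 0.42 (-0.74 to 1.58, limma adjusted p = 0.775). Scaled to total reads, Notch4 was no longer lower without overlap. With the trend on GC and length removed, neither Notch4 nor Dll4 was below 0, and the median of these 2 was 0.35. With Dll4 counted among the ligands, the Jag2 share was 18.6% ± 0.416 in WT and 4.05% ± 2.84 in the KO-labelled libraries, and Dll4 itself took 36.6% ± 6.05 and 54.1% ± 5.05 (SD, n = 2). The Jag1 share then turned to the lower side, at 34.4% ± 4.81 against 31.0% ± 3.37 with overlapping groups, and the Dll1 share was 10.4% ± 0.823 against 10.9% ± 1.16 (SD, n = 2). Endothelial markers summed to 228 and 334 RPKM in WT against 321 and 406 RPKM in the KO-labelled libraries, and 5 of 8 were higher without overlap, against 20.1% of all genes. Their part in the Dll4 and Notch4 values was not tested. Dll3 had no reads in any library.

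The other genes of the pathway were taken by role, 54 in all, of which 44 passed the filter. None passed the limma test at an adjusted p under 0.05. At an unadjusted p under 0.05, limma gave 1 of 44 as lower and 1 as higher, against 4.46% and 2.86% of all genes. The first was Dtx4, a ubiquitin ligase of the Deltex family, at 6.67 and 3.25 RPKM in WT against 1.27 and 1.90 RPKM in the KO-labelled libraries (log2 difference -1.16, limma adjusted p = 0.672). It had 21, 8, 6 and 8 reads. The second was Hdac1, a histone deacetylase of co-repressor complexes, at 2.89 and 3.70 RPKM in WT against 7.36 and 7.19 RPKM in the KO-labelled libraries (log2 difference 0.95, limma adjusted p = 0.672).

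By direction, 33 of the 44 genes had a log2 difference below 0, against 50.0% of all genes. Without overlap, 14 were lower and 3 higher, against 20.3% and 20.1%. The median was -0.40. Of the nuclear co-activators and co-repressors, which work with RBPJ on DNA, 14 of 16 were below 0 with a median of -0.44. Of the genes for trafficking and ubiquitination of ligands and receptors, 7 of 10 were below 0 with a median of -0.33, and of those for glycosylation 4 of 5 with a median of -0.46. The genes for proteolytic cleavage, which include the ADAM and gamma-secretase genes, were split 4 and 4 with a median of -0.035. The 3 further targets that were tested were all below 0, with a median of -0.70. Scaled to total reads, 20 of 44 were below 0, against 3163 of 11363 genes tested. The median of the 44 was then 0.09, which was below the 0.47 of all genes. On that scale 2 were lower and 10 higher without overlap, against 7.87% and 41.4% of all genes. By role, 7 of 16 co-activators and co-repressors were then below 0 with a median of 0.066, and 4 of 10 trafficking genes with a median of 0.17. The medians for glycosylation, cleavage and the 3 targets were -0.042, 0.49 and -0.15. Single libraries also moved these values. The median of the 44 was -0.24 without WT replicate 1, with 28 below 0, and -0.64 without WT replicate 2, with 33 below 0. For the co-activators and co-repressors it was -0.18 without WT replicate 1, with 10 of 16 below 0, -0.76 without WT replicate 2, and -0.22 without KO-labelled replicate 1. With a library left out, the medians ran from -0.65 to -0.13 for trafficking, from -0.50 to -0.19 for glycosylation, from -0.24 to 0.12 for cleavage and from -1.05 to -0.39 for the 3 targets. With the GC and length trend removed, the median was -0.22 over the 44, -0.20 for the co-activators and co-repressors, -0.18 for trafficking, -0.52 for glycosylation, -0.14 for cleavage and -0.20 for the 3 targets, against 0.042 over all genes.

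**Figure D4:**
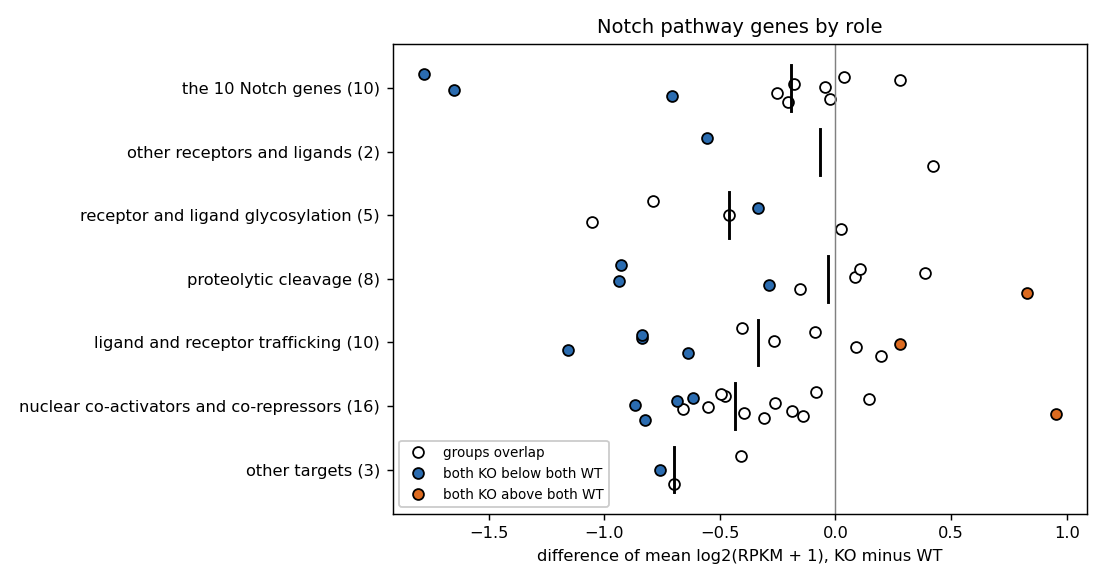
Difference of mean log2(RPKM + 1), KO-labelled libraries minus WT (horizontal axis), for the 10 Notch genes and 44 other pathway genes by role, with the number of genes tested in parentheses. Each point is a gene, filled where its groups do not overlap, and vertical bars are medians. Jag2 and Heyl are the lowest points, at -1.65 and -1.78, and the median of the nuclear cofactors is -0.44.

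Differences in these libraries moved with the base composition of the coding sequence. Over the tested protein-coding genes, the median log2 difference went from 0.38 in the decile of lowest coding GC content to -0.47 in the decile of highest. Most of the Notch genes are rich in GC, and 7 of the 10 were in the highest 2 deciles. The content ran from 48.8% for Rbpj and 52.9% for Jag1, in deciles 3 and 5, to 62.3% for Jag2. Jag2 at -1.65 and Notch3 at -0.71 compare with that median of -0.47, and Heyl at -1.78 with -0.25. Hes1, at 62.1% GC, lay above its decile at 0.28. With the trend on GC and length removed, the log2 differences were -1.11 for Jag2, -1.53 for Heyl, -0.15 for Notch3, 0.26 for Notch1 and 0.30 for Notch2. On that scale 5 of the 10 genes were below 0 and their median was 0.06, against 0.04 for all genes. The pathway genes then had 33 of 44 below 0 and a median of -0.22.

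**Figure D5:**
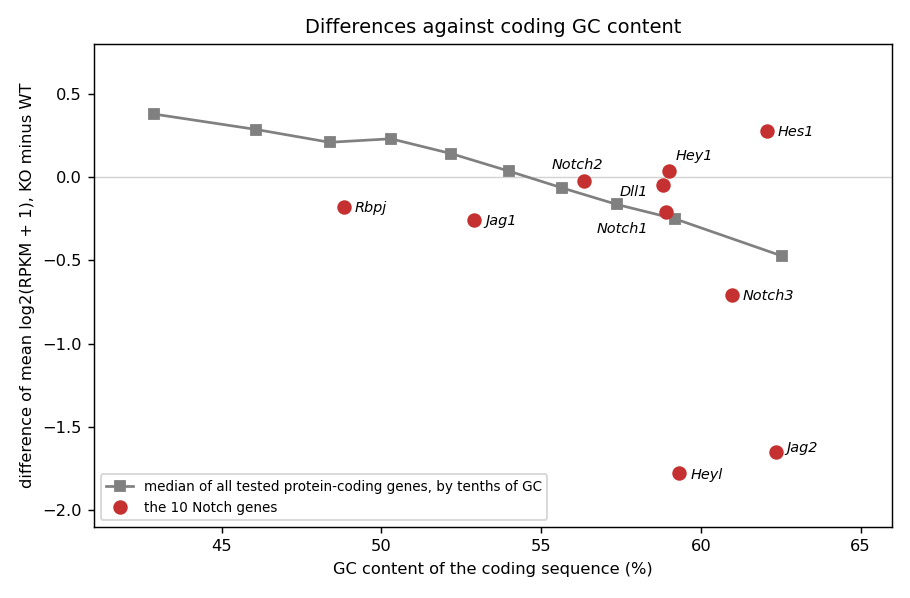
Difference of mean log2(RPKM + 1), KO-labelled libraries minus WT (vertical axis), against the GC content of the coding sequence in percent (horizontal axis). Red points are the 10 Notch genes and grey squares the medians of all tested protein-coding genes in deciles of GC. The grey line goes from 0.38 to -0.47, and Jag2 and Heyl lie more than 1 log2 unit below it while the other 8 lie within 1.

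Of the 7 genes with a proline run, 6 had a log2 difference below 0, as had 2 of the 3 without. Among the 7 genes with a run of at least 3 codons, Notch3, Jag2 and Heyl were lower without overlap, against 20.3% of all genes. Jag2 and Heyl had passed the filter through their WT libraries. Notch1, Dll1, Rbpj and Hes1 overlapped between groups. Hes1, with 6 consecutive codons, had a log2 difference of 0.28, and Notch3, with the same number, -0.71. The 3 genes without such a run, Notch2, Jag1 and Hey1, had -0.03, -0.25 and 0.04. With 10 genes this is a description only.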

How the data were processed

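Ribo-seq libraries of primary myoblasts (2 WT, 2 labelled KO) were analysed. Per the labels and the study's methods, the authors dropped reads of low quality, without an insert, or from rRNA and tRNA, aligned the rest to the mouse genome (mm10, Ensembl 97) by TopHat2 and assigned them to genes by HTSeq. Handling of strand and of multi-mapping reads is not given in the sources used here. The authors deposited RPKM, scaled to a common library size. Dividing them by the level of 1 read gave whole reads for 100.0% of values (tolerance 1e-06), so depth was known (642429 to 704006 reads per library). The deposited scaling sets the typical gene equal between libraries, so a shift of most genes together is invisible. Position and length of genes are those of the table, and coding sequences came from GENCODE vM21.

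limma 3.58.1 (R 4.3.3; eBayes with trend) was run on log2(RPKM + 1) of the 11363 genes with a mean of at least 1 RPKM, two-sided, with Benjamini-Hochberg adjustment over all of them. A fold on this scale understates the change of low genes. The script was tested on simulated data. Shares have Wilson intervals and ratios of summed reads exact intervals, both 95%. Without molecular identifiers, these intervals and the floor of 3 reads cover counting error only. Groups came from the labels.

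Genes named were the 10 members, Eif5a, Notch4, Dll4, from each pathway list those with an unadjusted p under 0.05 (at most 4), and markers at 0 reads. Thy1, Vcam1, Kcnj8, Ckm, Tnnt3 and Myf5 are named outside this rule, after their values were seen. Members, lists and tests were chosen with earlier results of these data known. Alternatives were a pseudocount of 0.1, other filters (none, 5 RPKM, 40 reads), other variance models, a replicate block, scaling to total reads, median centring, quantile normalization, protein-coding genes only, voom on recovered reads, removal of a GC and length trend (mgcv 1.9.3), and leaving out each library. The filter of 40 reads, the inclusion of Notch4 and Dll4, and the shares of Jag2 and Heyl were chosen after the values were seen.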

Additional observations from a re-analysis of the deposited data

How the results depend on the processing

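In 174 values of the 10 genes over 18 alternatives, no gene reached an adjusted p under 0.05 (limma). For 64 of these values, under 7 alternatives that change only the filter, the variance model or the block, the difference is the same by construction. Of the other 110, 83 kept their direction. Jag2, Heyl and Notch3 stayed below 0 in each alternative that tested them, but with total reads they were -1.27, -1.59 and -0.18, and without the GC and length trend Notch3 was -0.15. The filter of 5 RPKM removed Jag2, Dll1, Hey1 and Heyl, and that of 40 reads Hey1 and Heyl. The 27 values that changed sign came from genes near 0. Scaled to total reads, Notch1 was 0.36, Notch2 0.56, Jag1 0.30, Dll1 0.45 and Rbpj 0.35. After removal of the GC and length trend, in both fits with and without the block, Notch1 was 0.26, Notch2 0.30 and Dll1 0.27. Median centring gave 0.042 for Notch2 and 0.021 for Dll1, quantile normalization 0.0062 for Dll1, and for Hey1 a pseudocount of 0.1 gave -0.026 and voom -0.0014. With single libraries left out, the ranges were -0.62 to 0.21 for Notch1, -0.22 to 0.16 for Notch2, -0.61 to 0.10 for Jag1, -0.46 to 0.37 for Dll1, -0.68 to 0.32 for Rbpj, -0.54 to 1.09 for Hes1 and -0.63 to 0.71 for Hey1; their cause was not tested.

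The count of the 10 genes below 0 went from 8 to 3 with total reads, where 3163 of 11363 genes tested were below 0. It was 5 with the GC and length trend removed (also 5 with the block), where 4636 of 9847 genes were below 0. It was 5 of the 6 genes left by the filter of 5 RPKM. The count without overlap went from 3 to 1 under that filter. With total reads it was 2 lower and 1 higher, against 7.87% and 41.4% of all genes. It was 6 to 7 with a library left out, where 1 library stands against 2 and 62.1% to 75.4% of all genes did not overlap. The Notch1 share of receptor reads differed by -0.81 percentage points, by 0.47 with Notch4 included, and by -6.15 to 4.54 with a library left out. The Notch2 share differed by 5.49 points, and by -1.87 to 12.9 with a library left out.

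Replicate numbers were shared between groups, but the labels give them no meaning. Deviations of same-numbered libraries correlated at 0.057 over the genes tested and at 0.138 over those with at least 40 reads. With only 2 numbers and no label behind them, they were not taken as pairs. With the replicate block, limma called 0 of the 11363 genes instead of 12 (827 instead of 832 at an unadjusted p under 0.05), and 0 of the 10 Notch genes. Calls over all genes were 79 with voom, 21 with a robust prior, 86 with the GC and length trend removed under the block, and 0 to 12 in the other alternatives. The block cannot move a difference in this balanced design (Jag2 is -1.65 in both fits), and the limma adjusted p of Jag2 was 0.639 with it and 0.629 without.

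At this depth, a gene with the read numbers of Hey1 or Heyl could not be compared reliably between groups.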

Other observations

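Hes7, a target gene best known from the segmentation clock of the embryo, was looked at after its values were seen. It had more reads than any of the 10 Notch genes, 610 and 414 in WT against 390 and 582 in the KO-labelled libraries, or 559, 486, 238 and 398 RPKM. Its log2 difference was -0.76 (limma adjusted p = 0.709) and its groups did not overlap. With total reads, or with the GC and length trend removed, Hes7 stayed below 0 but was no longer lower without overlap. Its coding GC content was 70.5%. The gene overlaps an lncRNA on the opposite strand, 9130213A22Rik, which had 0 reads in each library. In the same list of targets, Hes2, Hes3, Hes5 and Hey2 had no reads in any library.

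With voom on recovered reads, 3 of the 44 other pathway genes tested were lower at an unadjusted p under 0.05, against 7.31% of all genes, and none passed at an adjusted p under 0.05. They were Dtx4, Maml3, a co-activator of the Mastermind family, and Furin, the protease that cuts the Notch precursor, with adjusted p-values of 0.377, 0.415 and 0.433 (limma voom). Maml3 and Furin were named after their values were seen. Maml3 had 16 and 4 reads in WT against 2 and 5 reads in the KO-labelled libraries, or 2.53, 0.81, 0.21 and 0.59 RPKM. It passed the filter through WT replicate 1. Furin had 158 and 51 reads in WT against 63 and 82 reads in the KO-labelled libraries, where both RPKM values, 7.57 and 11.1, were below the WT values of 28.6 and 11.8.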
